A study of Homo sapiens with 8 samples.

Results

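The DNA replication and S phase genes described here are 43 genes for origin licensing, helicase activation, the sliding clamp, the replicative polymerases, nucleotide supply, entry into S phase and assembly of the new chromatin. They were chosen by gene symbol alone, with no measured value in the rule, from a table of 23459 gene rows. The choice was made with earlier results of these data known. All 43 symbols were found, and all 43 passed the filter on low counts that left 13925 genes for testing. Total RNA was sequenced from Hct116 cells, an established human colorectal carcinoma line, after 16 h with 30 µM lenalidomide or with the same amount of the solvent DMSO. Each treatment had 4 libraries, labelled as biological replicates, and no allele, transgene or second agent was named for either group. The study's methods describe transfer to isotope-labelled amino acids with the drug or DMSO, a split of the cells for mass spectrometry and RNA, and label swaps for 2 of the 4 replicates of each treatment, while the sample labels name ordinary medium with 10% serum. The methods also call the replicates technical for mass spectrometry, while the study's figure legend for the RNA data calls them biological. Since the labels do not say which libraries came from a swap, label direction cannot be told apart from other differences between libraries of a treatment. The comparison asks whether messages for the replication machinery, a common readout of proliferation, differed after 16 h of drug.

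Replication starts where the origin recognition complex, CDC6 and CDT1 load the ring of MCM2 to MCM7 on DNA in G1. In S phase CDC45 and the GINS complex turn that ring into the active helicase, polymerase alpha with primase lays down primers, and polymerases delta and epsilon extend them on the PCNA clamp, which replication factor C places on DNA. Many of these genes are transcribed periodically under E2F factors, which are released from the retinoblastoma protein as cyclin E and its kinase become active. Lenalidomide binds cereblon, the substrate receptor of a ubiquitin ligase, and directs the ligase to new protein substrates.

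No replication gene was called different between the treatments. Of the 43 genes, 0 had an adjusted p under 0.05 in the quasi-likelihood test of edgeR, adjusted by the Benjamini-Hochberg method over all genes, and 0.0144% of all tested genes (2 of 13925, both higher with lenalidomide) did. The smallest adjusted p among the 43 was 0.999 in edgeR, and DESeq2 also called 0 of the 43. At an unadjusted p under 0.05 the count was 1 of 43, the thymidylate synthase gene TYMS, beside 4.18% of all tested genes. Libraries of the 2 treatments did not overlap for 1 of 43, the clamp loader gene RFC5, beside 2.08% of all tested genes. Both shares are close to what the whole table gave. Fitted log2 fold changes, lenalidomide over DMSO, ran from −0.085 for CCNE2 to 0.14 for TYMS, and 40 of 43 (93%) lay within 0.1 of 0, beside 71.9% of all tested genes. That share was 96.9% for 65 further replication genes and 96% for 25 genes of G2 and mitosis, so it was not particular to the 43. The median of the 43 was −0.020, beside 0.0025 over all tested genes, with 30 genes below 0 and 13 above. Over all 13925 tested genes 6781 lay below 0 and 7144 above. Below 0 were also 38 of the 65 further replication genes and 17 of the 25 genes of G2 and mitosis.

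The intervals around these values were narrow. A 95% confidence interval reached 0.13 to either side of the fitted value for the median replication gene (range 0.10 to 0.19), beside 0.17 for the median of all tested genes. The lowest bound of any of the 43 intervals was −0.24, for RRM1, and the highest was 0.30, for POLE. Spread between replicates was also small, with a median coefficient of variation of 5.38% with DMSO and 5.37% with lenalidomide, beside 7.25% and 7.68% over all tested genes. The further replication genes and the G2 and mitosis genes were alike in this. Their median intervals reached 0.13 to either side, and their median coefficients of variation with DMSO were 5.48% and 4.96%. Of the 43 genes, 41 lay above the median RPKM of tested genes, and the part of level in these values was not tested.

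**Figure D1:**
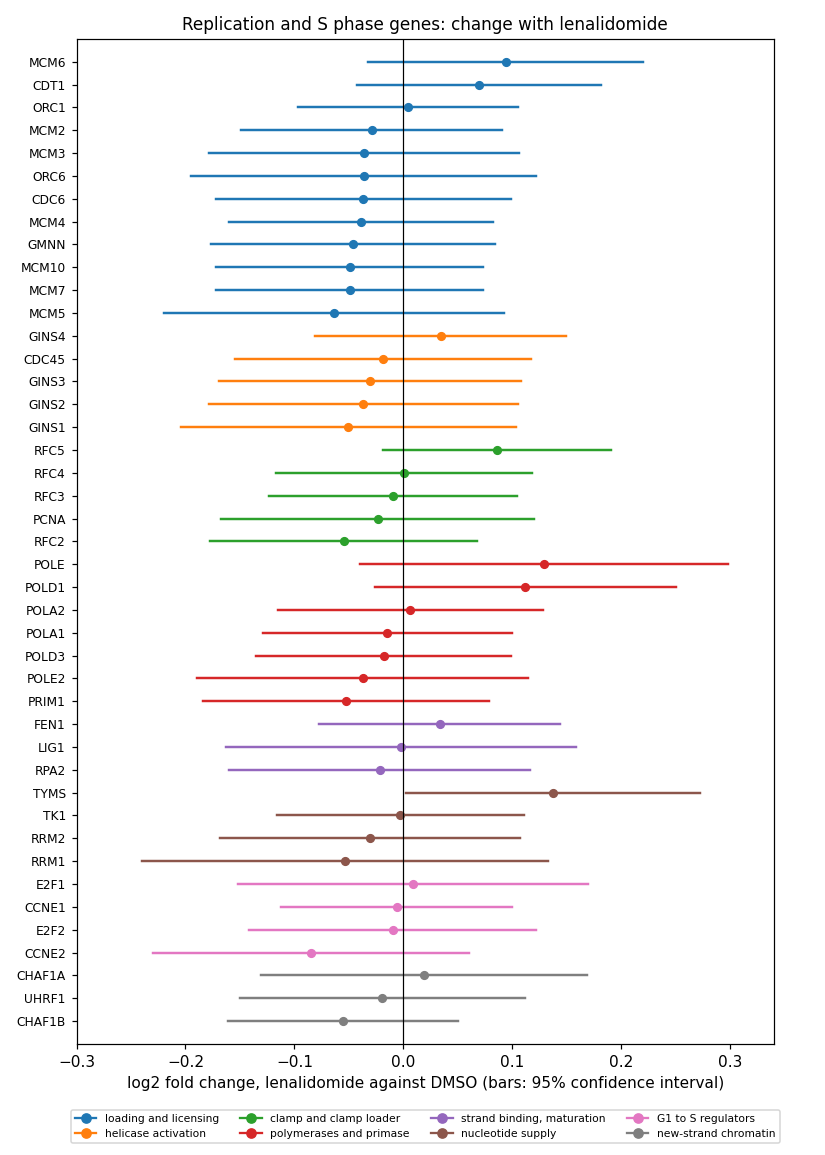
Log2 fold change of each of the 43 genes, lenalidomide over DMSO, on the horizontal axis, with 1 gene per line grouped and coloured by role. Points are fitted values and bars are 95% confidence intervals (n = 4 libraries per treatment). The interval of TYMS alone lies to 1 side of 0, from 0.0024 to 0.27, and no bar extends past −0.24 or 0.30.

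Library totals ran from 28218471 to 37473413 counts, and every lenalidomide library (at most 33659982) was smaller than every DMSO library (at least 35268940), so depth and treatment moved together, and with all libraries thinned to the smallest total 0 of the 43 genes were called. CPM values below are counts relative to these totals, corrected by edgeR's normalization factors, which lay between 0.971 and 1.02. The 43 genes took 0.778% to 0.827% of all counts in each library. Of 6 markers of colon epithelium, EPCAM (343 RPKM, CPM per kilobase of exon, with DMSO), CDH1 (11.8), KRT8 (209), KRT18 (213) and KRT19 (575) were expressed and VIL1 was near 0, with at most 2 counts in a library. None of the 5 markers of blood cells passed the filter on low counts, IKZF1 and IKZF3 among them, and of 5 markers of fibroblasts and endothelium the highest, COL1A1, stood at 0.503 RPKM. In bulk RNA, a change in the share of cells in S phase and a change in RNA per cell cannot be told apart.

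Many of the genes share a promoter feature. The list holds many genes known to be transcribed under E2F factors, so this feature is not independent of the choice. Its share was not counted for the further replication genes or for the G2 and mitosis genes. RefSeq promoter windows (GRCh38.p14, 250 bases before to 50 after the annotated start) were found for 37 of the 43 genes, and 18 of the 37 (48.6%) held at least 1 of 4 E2F-type 8-base words, TTTGGCGC, TTTCCCGC, TTTCGCGC or TTTGCCGC, on either strand. Of all 27305 windows of the same length, 881 (3.23%) held at least 1. TTTGGCGC was the most frequent word, in 9 of 37 (24.3%) against 0.652% of all windows, followed by TTTCCCGC in 7 (18.9% against 1.64%), TTTCGCGC in 4 (10.8% against 0.487%) and TTTGCCGC in 1 (2.7% against 0.542%). The words can overlap one another, as they do upstream of MCM6. A CCAAT box was found in 21 of 37 windows (56.8% against 35.4% of all) and a GC box, GGGCGG, in 27 (73% against 43.4%), while TATAAA and the cell cycle homology word TTTGAA were each found in 1 (2.7%, against 12.3% and 15.9%), all on either strand. These matches describe the letters only. The fitted log2 fold changes with lenalidomide had a median of −0.012 for the 18 genes with an E2F-type match and −0.020 for the 19 without, with 12 and 13 values below 0.

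The 200 bases before the annotated start are given 5′ to 3′ on the coding strand for 5 genes, with E2F-type matches in capitals. MCM6 (chr2:135876444-135876643, minus strand), a helicase subunit, had the most matches, 4 in 2 overlapping pairs that begin 152, 148, 90 and 86 bases before the start. E2F1 (chr20:33686386-33686585, minus strand), a transcription factor of this class itself, held matches 33 and 20 bases before its start. POLE (chr12:132687343-132687542, minus strand), the catalytic subunit of the leading-strand polymerase, and TYMS (chr18:657453-657652, plus strand), the enzyme that makes thymidylate, had the largest fitted fold changes and 1 match each, 18 and 39 bases before the start. RFC5 (chr12:118016503-118016702, plus strand), the gene whose treatments did not overlap, held none. POLD1, not printed, was next after TYMS and POLE in fitted log2 fold change, at 0.11, and held none either. E2F1, with its 2 matches, had a log2 fold change of 0.0091.
MCM6: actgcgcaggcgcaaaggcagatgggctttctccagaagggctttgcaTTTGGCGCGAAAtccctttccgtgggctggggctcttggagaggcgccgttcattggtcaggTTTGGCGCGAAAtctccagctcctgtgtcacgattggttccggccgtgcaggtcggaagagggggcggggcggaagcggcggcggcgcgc
E2F1: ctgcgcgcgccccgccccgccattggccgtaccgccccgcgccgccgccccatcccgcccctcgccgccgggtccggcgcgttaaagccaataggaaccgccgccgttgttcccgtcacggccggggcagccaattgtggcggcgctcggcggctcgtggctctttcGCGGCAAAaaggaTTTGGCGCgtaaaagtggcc
POLE: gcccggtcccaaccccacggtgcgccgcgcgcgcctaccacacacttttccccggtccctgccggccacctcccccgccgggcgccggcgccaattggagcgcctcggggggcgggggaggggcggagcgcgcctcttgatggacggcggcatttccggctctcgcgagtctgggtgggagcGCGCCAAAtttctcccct
TYMS: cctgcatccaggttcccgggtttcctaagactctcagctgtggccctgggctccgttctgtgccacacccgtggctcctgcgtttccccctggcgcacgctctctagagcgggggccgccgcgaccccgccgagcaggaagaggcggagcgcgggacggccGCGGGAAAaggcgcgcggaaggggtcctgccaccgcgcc
RFC5: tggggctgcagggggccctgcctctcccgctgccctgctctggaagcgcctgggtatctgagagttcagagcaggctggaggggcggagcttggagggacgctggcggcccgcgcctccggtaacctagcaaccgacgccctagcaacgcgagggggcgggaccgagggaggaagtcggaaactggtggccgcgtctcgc

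**Figure D2:**
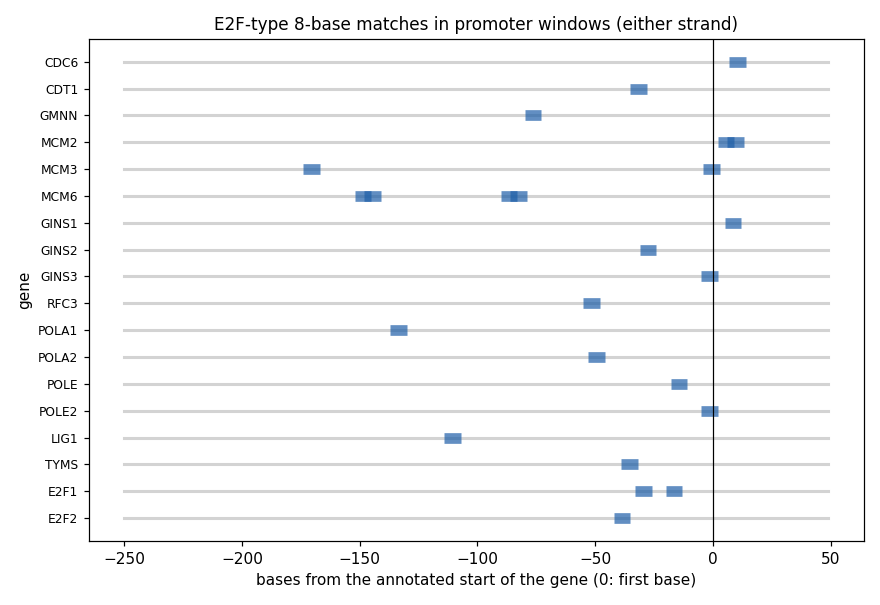
Position of each E2F-type 8-base match (blue) in the promoter windows of the 18 genes that held 1, in bases from the annotated start on the horizontal axis, with 1 gene per line and the searched window in grey. MCM6 shows 4 matches as 2 overlapping pairs, and the matches of CDC6, MCM2 and GINS1 begin after the start.

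Helicase loading and licensing genes spanned a wide range of levels and changed little with the drug. Levels per length are given as RPKM, CPM divided by the authors' exonic length of the gene in kilobases, as the mean of 4 DMSO libraries. The helicase subunits stood at 219 for MCM7, 189 for MCM3, 152 for MCM4, 79.4 for MCM2, 56.7 for MCM6 and 43.6 for MCM5, and GMNN, described next, at 50.5. The loader CDC6 stood at 112 RPKM, the origin recognition subunits ORC1 and ORC6 at 29.8 and 17.5, the replication initiation factor MCM10 at 43.4, and the loading factor CDT1 at 13.3. Among neighbours in level, MCM7 and MCM3 overlapped over the 8 libraries, as did MCM6, GMNN, MCM5 and MCM10 each with the next. The message of geminin (GMNN), the protein that binds and inhibits CDT1, was 3.81 ± 0.222 times that of CDT1 per length with DMSO and 3.52 ± 0.322 times with lenalidomide (SD, n = 4). The fold per length between the highest and the lowest of MCM2 to MCM7 was 5.04 ± 0.222 with DMSO and 5.09 ± 0.289 with lenalidomide. Their proteins form a ring with 1 copy of each. The length used covers all isoforms, so such folds depend on it. MCM5, the lowest of the ring per length, had the longest of these lengths, 5446 bases. In CPM it stood above MCM6 with DMSO, at 237 against 215.

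MCM7, the highest of this role, measured 735, 733, 814 and 731 CPM in DMSO replicates 1 to 4 and 728, 745, 735 and 704 CPM in lenalidomide replicates 1 to 4. DMSO replicate 3 lay above all the others and lenalidomide replicate 4 below them, and the groups overlapped. In the GENCODE annotation MCM7 exons share 392 bases with AP4M1 on the opposite strand and 29 with the microRNA gene MIR93, which had at most 4 counts in a library. The strand setting of the counting is not given in the sources used here. CDT1, the lowest, measured 34.9, 35.2, 35.6 and 36.2 CPM with DMSO and 37.8, 35.4, 36.9 and 38.9 CPM with lenalidomide. For CDT1 3 of 4 lenalidomide libraries lay above every DMSO library, and the log2 fold change was 0.070 (95% confidence interval −0.043 to 0.18). MCM5 measured 237, 225, 269 and 219 CPM with DMSO and 233, 248, 219 and 208 CPM with lenalidomide, for a log2 fold change of −0.064 (−0.22 to 0.092), the lowest of the role. The highest and lowest MCM5 values came from DMSO replicate 3 and lenalidomide replicate 4, and the fold change was −0.0025 without the former and 0.041, the other direction, without both. MCM6 had the role's highest fitted log2 fold change, 0.094 (−0.032 to 0.22), and 9 of the 12 genes lay below 0.

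Among helicase activation genes GINS2 stood at 48 RPKM, CDC45, the helicase cofactor, at 34.7, GINS1 at 30.3, GINS3 at 17 and GINS4 at 7.45. Only CDC45 and GINS1 overlapped among neighbours in that order. The 4 GINS subunits, which form a complex with 1 copy of each, spanned a fold per length of 6.45 ± 0.46 with DMSO and 6.14 ± 0.671 with lenalidomide (SD, n = 4). This fold also depends on the exonic lengths used. GINS2 measured 72.4, 79.4, 80.8 and 81.7 CPM in the DMSO libraries and 71.4, 84.9, 79 and 71 CPM in the lenalidomide libraries. GINS4 measured 29.4, 27.5, 29.2 and 28.4 CPM with DMSO and 30.3, 28.8, 28.6 and 29.6 CPM with lenalidomide. The groups overlapped for all 5 genes, with log2 fold changes from −0.051 (GINS1) to 0.034 (GINS4). Exons of GINS1 share 259 bases with NINL on the opposite strand.

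In the clamp and clamp loader, PCNA, the sliding clamp, stood far above its loader subunits per length, at 209 RPKM against 69 for RFC4, 68.2 for RFC5, 33.2 for RFC2 and 25.3 for RFC3, and only RFC4 and RFC5 overlapped among neighbours. PCNA measured 450, 461, 390 and 454 CPM with DMSO and 418, 453, 455 and 400 CPM with lenalidomide, with DMSO replicate 3 the lowest of all 8 libraries and a log2 fold change of −0.024 (95% confidence interval −0.17 to 0.12). RFC3, the lowest, measured 89.6, 94.7, 82.3 and 90.8 CPM with DMSO and 90.3, 89.5, 87.9 and 87.5 CPM with lenalidomide. DMSO replicate 3 was again the lowest library for RFC3, RFC4 and RFC5, and the highest of the 8 for RFC2.

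RFC5 (Entrez 5985, GRCh37 chr12:118451393-118470935, plus strand) measured 171, 174, 161 and 168 CPM with DMSO and 175, 180, 178 and 183 CPM with lenalidomide. All 4 lenalidomide libraries lay above all 4 DMSO libraries, by a margin of about 1 CPM between the nearest. The lack of overlap, for which the gene is described here, fixes the exact two-sided permutation p at 0.0286, the smallest that 4 against 4 allows. That p therefore adds nothing to it. The log2 fold change was 0.086 ± 0.049 (SE, interval −0.019 to 0.19), and in edgeR its adjusted p was 0.999 (0.0997 unadjusted). Without DMSO replicate 3, the lowest library, it was 0.062, with an unadjusted p of 0.214 in edgeR. Exons of RFC5 and its neighbour WSB2 on the opposite strand share 186 bases, so reads there may belong to either. The fold between the highest and lowest of RFC2 to RFC5 was 2.74 ± 0.0486 with DMSO and 2.88 ± 0.0895 with lenalidomide (SD, n = 4).

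The polymerase and primase genes had a median of 14.5 RPKM with DMSO and stood at 45.3 for the primase subunit PRIM1, 26.5 for POLA1, the catalytic subunit of polymerase alpha, 17 for POLE2, an accessory subunit of polymerase epsilon, 14.5 for POLE, 11.8 for POLD3, an accessory subunit of polymerase delta, 10.3 for POLD1, its catalytic subunit, and 9.38 for POLA2. POLE2 and POLE overlapped over the 8 libraries, as did POLD3 and POLD1, and POLD1 and POLA2. PRIM1 measured 69, 70.5, 62.3 and 63 CPM with DMSO and 63.4, 67.8, 65.1 and 58.8 CPM with lenalidomide, and its exons share 139 bases with NACA on the same strand. POLA2 measured 31.9, 36, 34.3 and 33.4 CPM with DMSO and 34.4, 34.4, 32.4 and 35 CPM with lenalidomide, and the groups overlapped for both genes.

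POLE (Entrez 5426, GRCh37 chr12:133200339-133263962, minus strand) had the longest exonic length of the 43, 9377 bases. It measured 136, 133, 139 and 136 CPM with DMSO, close together, and 155, 127, 139 and 174 CPM with lenalidomide, where the groups overlapped and lenalidomide replicate 2 was the lowest of all 8. The log2 fold change was 0.13 (−0.039 to 0.30), with an unadjusted p of 0.122 in edgeR. Without lenalidomide replicate 4 it was 0.047, without lenalidomide replicate 2 it was 0.20 with an adjusted p of 0.466 in edgeR, and 0.059 once a trend on GC content and length was removed from each library. POLD1 measured 35.7, 36.1, 39.9 and 34 CPM with DMSO and 42.7, 38.8, 37.2 and 38.6 CPM with lenalidomide, for a log2 fold change of 0.11 (−0.026 to 0.25). DMSO replicate 3 lay above 3 of the 4 lenalidomide libraries, and without it the POLD1 value was 0.16, with an adjusted p of 0.819 in edgeR (0.0226 unadjusted). The other 5 genes of this role lay between −0.053 and 0.0063.

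The genes for single strand binding and lagging strand maturation were the flap nuclease FEN1 at 81.7 RPKM, the strand-binding subunit RPA2 at 77.9, which overlapped FEN1, and DNA ligase LIG1 at 21.8. FEN1 measured 186, 185, 189 and 189 CPM with DMSO and 191, 198, 200 and 179 CPM with lenalidomide, so that lenalidomide replicate 4 alone lay below the DMSO libraries and the other 3 above them. LIG1 measured 101, 87.8, 95.3 and 89.2 CPM with DMSO and 102, 102, 83.6 and 84.8 CPM with lenalidomide, on both sides of the DMSO range. Log2 fold changes were 0.033 for FEN1, −0.022 for RPA2 and −0.0023 for LIG1, with the interval of LIG1 from −0.16 to 0.16.

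Nucleotide supply genes were the highest role per length by median, 153 RPKM with DMSO. The 2 subunits of ribonucleotide reductase, which makes deoxyribonucleotides, stood at 191 RPKM (RRM2) and 164 (RRM1), thymidine kinase TK1 at 142 and TYMS at 95.3, and RRM2, RRM1 and TK1 overlapped with their neighbours in that order. RRM2 measured 635, 638, 712 and 638 CPM with DMSO and 626, 685, 666 and 591 CPM with lenalidomide. Again DMSO replicate 3 was the highest of the 8 libraries and lenalidomide replicate 4 the lowest, and the log2 fold change was −0.031 (−0.17 to 0.11). RRM1 had the widest interval of the 43, −0.24 to 0.13, with 669 ± 88.3 CPM with DMSO (SD, n = 4).

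TYMS (Entrez 7298, GRCh37 chr18:657653-673578, plus strand) measured 144, 158, 144 and 158 CPM with DMSO and 154, 157, 174 and 180 CPM with lenalidomide. Lenalidomide replicates 3 and 4 lay above every DMSO library, while replicates 1 and 2 lay within the DMSO range. The log2 fold change was 0.14 ± 0.063 (SE, interval 0.0024 to 0.27), with an adjusted p of 0.999 in edgeR (0.0466 unadjusted) and an exact two-sided permutation p of 0.171 (n = 4 per group). Without lenalidomide replicate 4 it was 0.097 with an unadjusted p of 0.143 in edgeR, and 0.077 when DMSO replicate 3 was left out as well. TYMS exons share 967 bases with ENOSF1 and 193 with TYMSOS, both on the opposite strand. ENOSF1 itself measured 34.3 to 40.5 CPM over the 8 libraries, with a log2 fold change of −0.012 (−0.15 to 0.13).

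Regulators of the G1 to S step stood at 30 RPKM for CCNE1 and 20.7 for CCNE2, the E cyclins, and at 5.98 for E2F2 and 5.02 for E2F1, the transcription factors, which were the lowest of the 43, and no neighbours in that order overlapped. CCNE1 measured 61.9, 58.6, 58.7 and 58.9 CPM with DMSO and 58.3, 61.7, 59.4 and 57.7 CPM with lenalidomide. E2F1 measured 14.1, 13, 14.4 and 12.8 CPM with DMSO and 12.8, 14.1, 13 and 14.7 CPM with lenalidomide, so both genes covered nearly the same range in both groups. CCNE2 measured 52.8, 62.6, 52.5 and 60 CPM with DMSO and 53.3, 57.1, 54.3 and 50.1 CPM with lenalidomide. DMSO replicates 2 and 4 lay above all lenalidomide libraries and the other two did not, and the CCNE2 log2 fold change of −0.085 (95% confidence interval −0.23 to 0.060), the lowest of the 43, was −0.037 without DMSO replicate 2. CCNE2 exons share 1629 bases with INTS8 on the opposite strand in the GENCODE annotation, a large part beside the deposited CCNE2 length of 2750 bases. Reads there may belong to either gene, and the level of INTS8 was not examined. The log2 fold changes of E2F1, E2F2 and CCNE1 were 0.0091, −0.0099 and −0.0062.

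For the chromatin of the new strand, the subunits of chromatin assembly factor 1, which places histones behind the fork, stood at 45.7 RPKM (CHAF1A) and 27.9 (CHAF1B), and UHRF1, which brings the maintenance methyltransferase to new DNA, at 44.4, overlapping CHAF1A. CHAF1A measured 156, 138, 175 and 142 CPM with DMSO and 160, 160, 150 and 149 CPM with lenalidomide, with the lenalidomide libraries inside the DMSO range. CHAF1B measured 64.8, 62.6, 63.3 and 63.4 CPM with DMSO and 61.9, 63.8, 60.6 and 58.3 CPM with lenalidomide, for a log2 fold change of −0.055 (−0.16 to 0.051). For CHAF1B 3 of 4 lenalidomide libraries lay below every DMSO library, and its exons share 89 bases with MORC3.

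**Figure D3:**
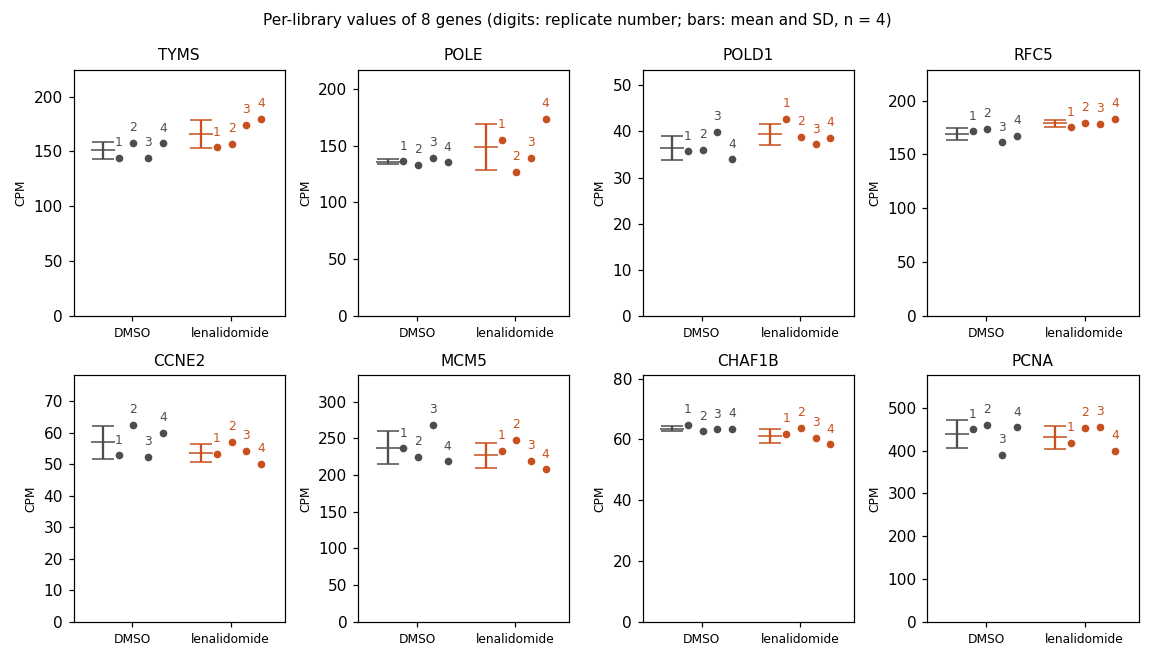
CPM in each library for 8 genes: those with the 3 largest log2 fold changes in each direction, RFC5, and PCNA as the highest clamp gene. Points are libraries with their replicate number, bars are mean and SD (n = 4 per treatment), and each vertical axis starts at 0. RFC5 is the gene without overlap between treatments, and DMSO replicate 3 is the lowest PCNA value at 390.

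Across all roles, 41 of the 43 genes lay above the median RPKM of tested genes with DMSO (6.36) and 16 above the 90th percentile (50). The fold between MCM7 and E2F1 was 43.6. The subunits of polymerase alpha with primase (PRIM1, POLA1 and POLA2) spanned a fold per length of 4.83 ± 0.368 with DMSO and 4.64 ± 0.367 with lenalidomide (SD, n = 4), near that of the MCM ring. All these folds depend on the exonic lengths used. Some pairs lay nearer to each other, with a fold of 1.17 ± 0.0967 between RRM2 and RRM1 and 1.18 ± 0.119 between POLE2 and POLE with DMSO, and 1.18 ± 0.0571 and 1.15 ± 0.0887 with lenalidomide (SD, n = 4). CHAF1A and CHAF1B differed 1.64 ± 0.17 fold with DMSO and 1.72 ± 0.0372 fold with lenalidomide.

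**Figure D4:**
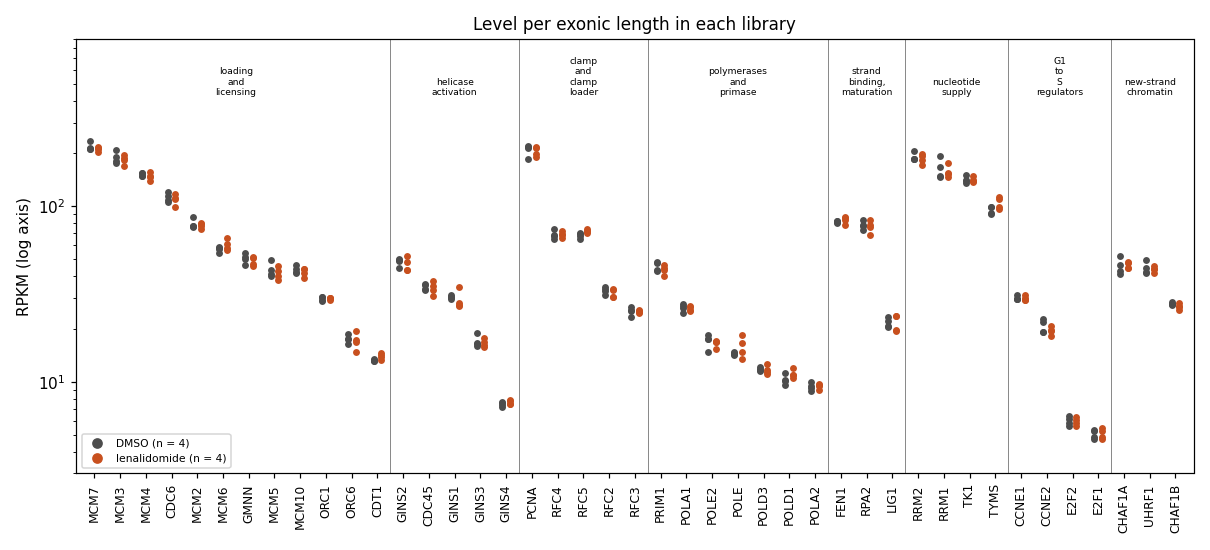
Level per exonic length (RPKM, log axis) of the 43 genes in each of 4 DMSO (grey) and 4 lenalidomide (orange) libraries, ordered within each role by the DMSO mean. Points of both treatments fall together for each gene, while levels between genes differ by up to 43.6 fold, from 219 for MCM7 to 5.02 for E2F1.

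The larger pattern lay between libraries of the same treatment. The summed level of the 43 genes was 8044, 7906, 8518 and 7873 CPM with DMSO (8085 ± 298, SD, n = 4) and 7938, 8346, 8031 and 7612 CPM with lenalidomide (7982 ± 302). DMSO replicate 3 was the highest and lenalidomide replicate 4 the lowest, and the groups overlapped. DMSO replicate 3 held the highest value for 16 of 43 genes (37.2%, beside 17.3% of all tested genes), among them MCM2, MCM3, MCM5, MCM7, MCM10, CDC6, RRM1, RRM2, RPA2 and UHRF1, and the lowest for 5, PCNA, RFC3, RFC4, RFC5 and POLE2. Lenalidomide replicate 4 held the lowest value for 19 of 43 (44.2%, beside 20.4%), and the highest for CDT1, RFC5, POLE, TYMS and E2F1. It also held the lowest value for genes of G2 and mitosis, among them BUB1B, KIF23, MAD2L1, NUSAP1 and TPX2. For others of that list, MKI67, FOXM1, CDC25B and PLK1, it held the highest. Their shares were not counted, so the pattern cannot be called particular to the 43. Among the 43, the number of genes below 0 fell from 30 with all libraries to 22 when DMSO replicate 3 was left out, to 21 for lenalidomide replicate 4 and to 13 for both, and then the median log2 fold change was 0.021. The deviations of the 43 genes also moved with GC content and exonic length, with a Pearson r over the libraries from −0.49 (DMSO replicate 2) to 0.44 (lenalidomide replicate 1) for GC content and from −0.54 to 0.45, in the same libraries, for log2 length, over 43 genes that share each library and are not independent. DMSO replicate 3 and lenalidomide replicate 4 had an r over the 43 genes of 0.28 and 0.34 for GC content and 0.28 and 0.21 for length. Over 8627 genes of at least 10 CPM the r ran from −0.29 to 0.27 for GC content and from −0.44 to 0.40 for length. There DMSO replicate 3 and lenalidomide replicate 4 had an r of 0.27 and 0.17 for GC content and −0.02 and 0.40 for length. With a trend on GC content and length removed from each library, 31 of the 43 log2 fold changes lay below 0 and their median was −0.027. The part of base composition and length in the library pattern itself was not tested.

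**Figure D5:**
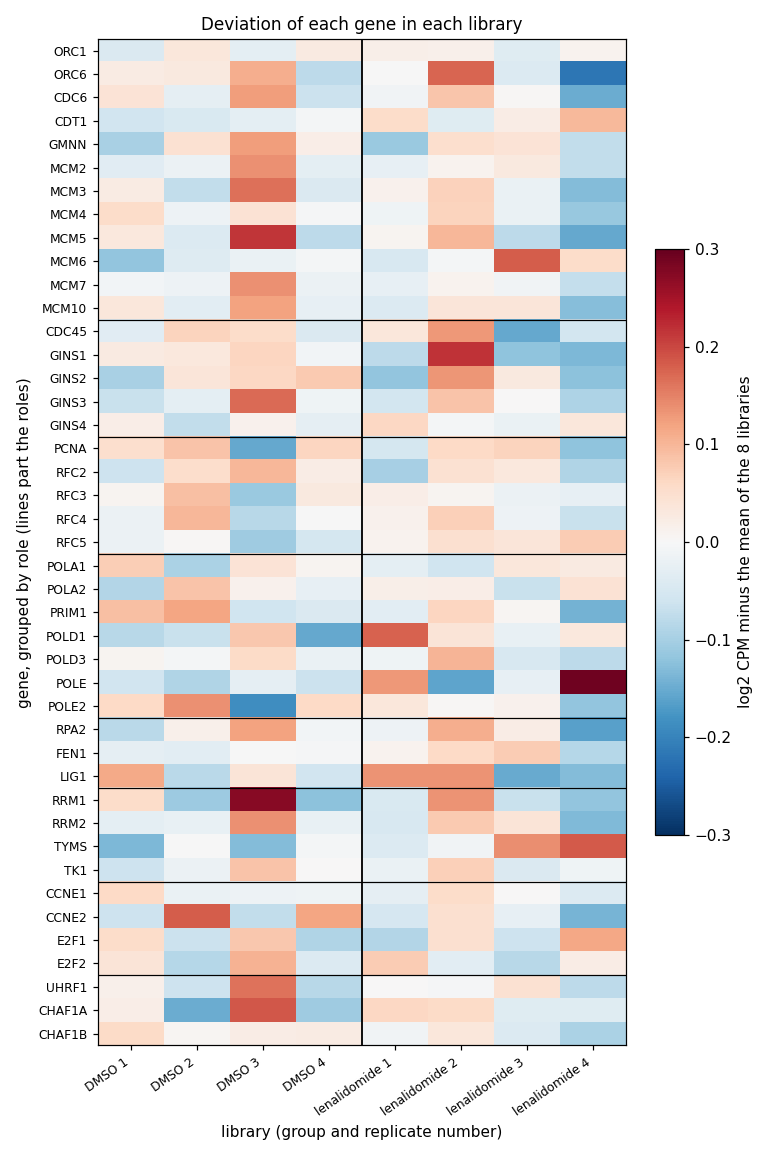
Log2 CPM of each of the 43 genes (lines, grouped by role) in each library (columns, DMSO left and lenalidomide right) minus the gene's mean over the 8 libraries, in colour. The DMSO replicate 3 column is red for most licensing genes and blue for PCNA, RFC3, RFC4, RFC5 and POLE2, and the lenalidomide replicate 4 column is blue for most genes and dark red for POLE.

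No other listed gene of the pathway was called either. Of 65 further replication genes, 0 passed the adjusted threshold in edgeR and 1 had an unadjusted p under 0.05, with 27 log2 fold changes above 0 and 38 below and a median of −0.014. That gene was TOP1, the topoisomerase that relaxes DNA ahead of the fork, at 175, 171, 252 and 202 CPM with DMSO and 193, 230, 312 and 297 CPM with lenalidomide, for a log2 fold change of 0.37 ± 0.144 (SE) and an adjusted p of 0.999 in edgeR (0.0227 unadjusted). Of 25 genes of G2 and mitosis, 0 passed the adjusted threshold, with 8 above 0 and 17 below and a median of −0.029. There the gene with an unadjusted p under 0.05 was MKI67, the Ki-67 proliferation antigen, at 1213, 1082, 1407 and 1190 CPM with DMSO and 1316, 1279, 1420 and 1577 CPM with lenalidomide, for a log2 fold change of 0.19 ± 0.086 (SE) and an adjusted p of 0.999 in edgeR (0.0419 unadjusted). The groups overlapped for both, and DMSO replicate 3 was the highest DMSO library for each.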

How the data were processed

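Total RNA from Hct116 cells was extracted with RNeasy columns and made into ScriptSeq v2 libraries. The authors used QuasR to align the reads on hg19 and to count them over UCSC known genes, and the deposited values are these raw counts, not normalized, beside an exonic length per gene in bases. The submitters' processing notes name bcl2fastq 2.17. Strand handling beyond the default is not given in the sources used here. Rows without a symbol (70, with 0.0223% of counts) were kept.

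The counts were tested in R 4.3.3 with edgeR 4.0.16 (filterByExpr with a minimum count of 10 and total of 15, TMM, glmQLFit and glmQLFTest) on 4 DMSO and 4 lenalidomide libraries, with Benjamini-Hochberg adjustment over 13925 genes and a threshold of 0.05. Single genes were also compared by exact two-sided permutation. RPKM used the deposited length, which covers all isoforms. Positions, exon overlaps and GC content came from the GENCODE annotation of GRCh37, and promoter windows from RefSeq on GRCh38.p14. Since the reads were counted over UCSC known genes, the shared bases given may differ from those in the exons counted. The scripts were tested on simulated data. Library pairs differed beyond counting noise (chi-square per degree of freedom 5.8 to 25.5 within a treatment and 5.7 to 26.8 between), so no library was counted as a copy. Alternatives used DESeq2 1.42.0, other filters and scaling, thinning, a replicate block, each library left out in turn and, chosen after seeing the data, removal of a GC and length trend and leaving out DMSO replicate 3 with lenalidomide replicate 4. Each named gene was given its level and role. Values per library were given for genes with an unadjusted p under 0.05 or without overlap, for the 3 largest fold changes in each direction and for the highest and lowest gene per length of each role. The genes, roles and lists were chosen with earlier results of these data known. P-values set the difference between treatments against the spread between these libraries, which edgeR estimates in part across genes. The sources call the replicates biological in the series design and in the study's figure legend for the RNA data, and technical in the mass spectrometry methods. Part of the spread may thus be technical.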

Additional observations from a re-analysis of the deposited data

Results flagged for a closer look

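In 7 of 90 groups of 4 values (the 43 genes, TOP1 and MKI67, by treatment) 1 library lay far from the other 3 by Dixon's test, where chance gives about 1 in 20. DMSO replicate 3 was that library for 4 genes. It was high for MCM2 (321 CPM, others 285 to 288), MCM7 (814, others 731 to 735) and RRM2 (712, others 635 to 638), and low for PCNA (390, others 449 to 461). Lenalidomide replicate 2 was high for GINS1 (118 CPM, others 92.3 to 96) and lenalidomide replicate 3 low for ORC1 (92.1 CPM, others 95.2 to 95.6). DMSO replicate 1 was high for CCNE1 (61.9 CPM, others 58.5 to 58.9).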

How the results depend on the processing

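No replication gene passed the adjusted threshold under any of the alternatives run, nor did a gene of either comparison list. Over all genes the count of 2 became 7 with DESeq2, 4 with every gene that had at least 1 count and 1 to 2 with a library left out. The median log2 fold change of the 43 genes, −0.020 in the main fit, ran from −0.048 to 0.0003 with a library left out. It was 0.021 with DMSO replicate 3 and lenalidomide replicate 4 both left out, so its sign was not stable. All values lay within 0.045 of the main fit, 1 SD of the per-library medians, but that allowance is larger than the main value itself. Before adjustment, the 1 gene with p under 0.05 became 0 with every gene that had at least 1 count and without DMSO replicate 1, lenalidomide replicate 3 or lenalidomide replicate 4, and 3 (GINS1, POLE and TYMS) without lenalidomide replicate 2, where the count over all genes rose from 582 to 1042. POLD1 took the place of TYMS without DMSO replicate 3. A p that misses the threshold does not show equal levels, and the intervals give the range for each change.

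Replicate numbers are shared by the treatments, but not every same-numbered pair deviated together. The r over all genes was 0.028, −0.024, 0.031 and 0.268 for numbers 1 to 4, the last above every other-numbered pair (−0.286 to 0.169), and over the 43 genes 0.444, −0.011, −0.164 and 0.260, and 1 of 4 DMSO libraries correlated best with its own number. With a replicate block, 6 genes passed and 0 of the 43.

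Of 688 single-gene values under 16 alternatives, 599 kept their sign and side of the threshold, 0 became called and 89 changed sign, in 29 genes with fitted values of at most 0.064 in size. Values that changed sign were −0.0030, −0.0061 and −0.00091 for ORC1, RFC4 and POLA2 with DESeq2, −0.0043, −0.0076 and −0.0022 with every gene that had at least 1 count, −0.0030 for RFC4 with relative log expression size factors, −0.0044 for RFC4, −0.0090 for POLA2, 0.0038 for POLD3, 0.0090 for LIG1 and 0.0030 for TK1 after thinning, and −0.00027 for ORC1, 0.0014 for RFC3 and −0.0017 for POLA2 with the GC and length trend removed. With DMSO replicate 3 and lenalidomide replicate 4 both left out, they were −0.00752 for ORC1, 0.0545 for ORC6, 0.0415 for CDC6, 0.00561 for GMNN, 0.033 for MCM2, 0.0516 for MCM3, 0.0405 for MCM5, 0.00531 for MCM7, 0.0166 for MCM10, 0.0115 for CDC45, 0.0113 for GINS2, 0.0494 for GINS3, −0.00442 for RFC4, −0.00183 for POLA2, 0.0209 for POLD3, 0.0636 for RPA2, 0.0504 for LIG1, 0.0671 for RRM1, 0.0491 for RRM2, 0.0303 for TK1, 0.000135 for CCNE1, 0.0157 for E2F2 and 0.0572 for UHRF1. With a library left out, values ran from −0.0132 to 0.0164 for ORC1, from −0.106 to 0.0249 for ORC6, from −0.072 to 0.00518 for CDC6, from −0.0495 to 0.0101 for MCM2, from −0.0669 to 0.0116 for MCM3, from −0.0685 to 0.027 for CDC45, from −0.0656 to 0.0205 for GINS3, from −0.0794 to 0.0114 for PCNA, from −0.05 to 0.0194 for RFC3, from −0.0296 to 0.0352 for RFC4, from −0.048 to 0.00414 for POLA1, from −0.0253 to 0.0367 for POLA2, from −0.057 to 0.00454 for POLD3, from −0.104 to 0.00247 for POLE2, from −0.0638 to 0.0259 for RPA2, from −0.0495 to 0.0456 for LIG1, from −0.109 to 0.0326 for RRM1, from −0.0631 to 0.00804 for RRM2, from −0.0282 to 0.0225 for TK1, from −0.0265 to 0.00955 for CCNE1, from −0.0288 to 0.0388 for E2F1, from −0.0394 to 0.0206 for E2F2, from −0.0499 to 0.0311 for UHRF1 and from −0.0261 to 0.0853 for CHAF1A. The cause of these sign changes was not tested.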
